A study of Drosophila melanogaster with 2 samples.

Results

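The genes kirre (kin of irre), rst (roughest), sns (sticks and stones) and hbs (hibris), encode the immunoglobulin-type surface proteins by which *Drosophila* myoblasts recognise each other. They are 4 of the 13945 protein-coding genes outside the Y chromosome. They were put together by function, and kirre was chosen by its count of summits in the authors' reproducible peak set, the highest of any gene, so that count is a description and was given no test. Kirre and Rst act on muscle founder cells, Sns and Hbs on the fusion-competent myoblasts that are drawn to them. Contact between the pairs recruits adaptor proteins and drives actin assembly at the membrane, after which the cells fuse into a muscle fibre. The same proteins, known together as the irre cell recognition module, also sort cells in the developing eye and optic lobe, and Kirre and Sns form the filtration slits of nephrocytes.

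The data are ChIP-seq (chromatin immunoprecipitation followed by sequencing) of the homeodomain transcription factor Bsh, which is known for its role in neurons of the optic lobe. Both biological replicates are whole embryos of 10 to 12 h from the strain bsh-GFP, a stable transgenic line whose Bsh carries GFP at its C-terminal end, and the precipitation was with an antibody against GFP. There is 1 group and no other condition, and which cells of the embryo gave a peak cannot be told from whole embryos. The promoter that drives the tagged protein is not stated in the labels. The authors deposited 30000 peaks for each replicate and for the pooled reads, and a set of 7927 peaks kept by IDR (irreproducible discovery rate), a method that asks how well the ranks of peaks match between replicates. The read depth behind these lists is unknown. A gene's window is its annotated span with 2 kb either side, and a peak belongs to the window that holds its summit, its highest point. Each peak carries a signal value, a score from the authors' peak caller. Its scale differs between the replicate lists and the pooled list. The IDR peaks in the windows of kirre, rst and hbs have the same values in the pooled list.

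The peaks of kirre on which the values below turn are shown here with 50 bp either side of the summit, 101 bp in all, on the plus strand of *D. melanogaster* genome release 6 (dm6). The first 3 are the strongest, and the other 4 are all those that hold TAATTA, the core bound by many homeodomain proteins, which reads the same on both strands. Capitals mark TAATTA.
356.8 kb from the kirre start, chrX:3097164-3097264: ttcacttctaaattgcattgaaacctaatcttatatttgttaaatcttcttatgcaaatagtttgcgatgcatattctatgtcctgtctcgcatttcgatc
305.8 kb from the kirre start, chrX:3046124-3046224: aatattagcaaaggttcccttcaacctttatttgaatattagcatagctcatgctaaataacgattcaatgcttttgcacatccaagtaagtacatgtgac
3.85 kb from the kirre start, chrX:2744186-2744286: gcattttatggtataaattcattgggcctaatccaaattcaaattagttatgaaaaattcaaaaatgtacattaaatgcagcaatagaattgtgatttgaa
276.3 kb from the kirre start, chrX:3016599-3016699: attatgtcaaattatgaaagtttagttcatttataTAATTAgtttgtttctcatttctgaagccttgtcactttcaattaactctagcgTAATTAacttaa
279.4 kb from the kirre start, chrX:3019731-3019831: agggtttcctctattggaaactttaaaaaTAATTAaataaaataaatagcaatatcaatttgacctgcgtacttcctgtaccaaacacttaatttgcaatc
304.6 kb from the kirre start, chrX:3044948-3045048: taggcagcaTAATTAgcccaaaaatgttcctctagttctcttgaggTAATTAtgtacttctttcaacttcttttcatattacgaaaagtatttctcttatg
368.7 kb from the kirre start, chrX:3109052-3109152: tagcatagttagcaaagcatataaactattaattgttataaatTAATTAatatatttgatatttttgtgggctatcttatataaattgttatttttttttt

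The 4 recognition genes differed widely in how many peaks they held. The window of kirre held 44 IDR summits, that of rst 3, that of hbs 1 and that of sns none. So 3 of the 4 genes had at least 1 IDR summit, where 41.8% of all protein-coding genes did. With a flank of 10 kb it was the same 3, where 70.5% of genes had one, and among the 1000 strongest IDR peaks it was kirre alone, where 9.54% did. In the longer lists the order was similar. The pooled list held 167 summits for kirre, 22 for rst, 13 for hbs and 1 for sns, and 62.5% of all genes had at least 1. Replicate 1 held 170, 21, 14 and 2 in that order of genes, with 65.5% of all genes having at least 1, and replicate 2 held 151, 22, 12 and 5, with 65.6%. All 4 genes thus had a peak in each list of 30000, as most genes did. Among genes with windows of 0.8 to 1.2 times the length, an IDR summit was present in 69.2% of 448 genes for rst, 67.0% of 358 for hbs and 70.1% of 194 for sns. The windows are 398149 bp for kirre, 27436 bp for rst, 61603 bp for sns and 34739 bp for hbs. Per 100 kb of window, kirre held 11.1 and rst 10.9 IDR summits, both above the 5.76 of all chromosomes together. The windows of kirre and rst are not separate, as described next, and their densities share peaks.

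**Figure D1:**
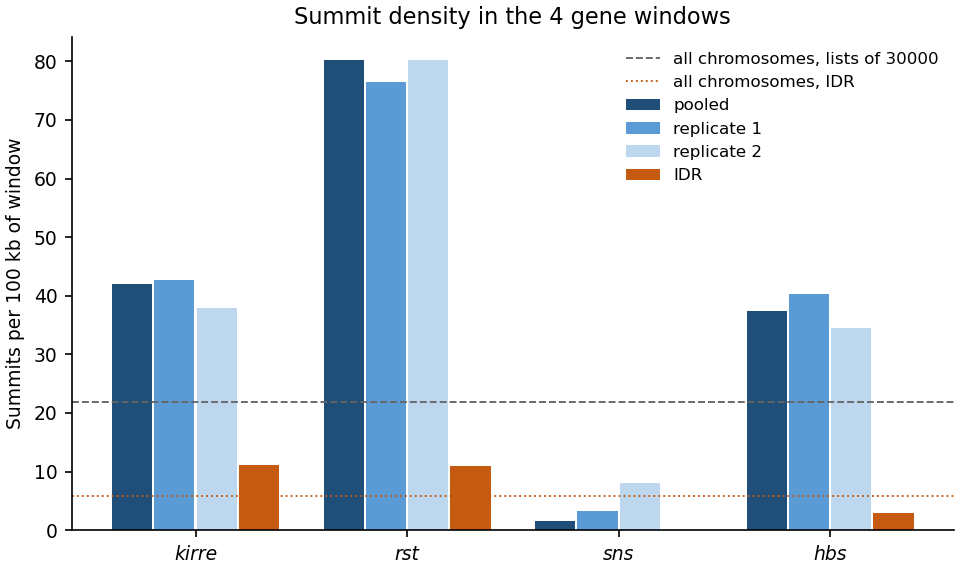
Summits per 100 kb of gene window (vertical axis) for the 4 genes, with a bar for each of the pooled, replicate 1, replicate 2 and IDR lists; the lines give the density over all chromosomes, 21.8 for the lists of 30000 peaks and 5.76 for the IDR list. Each bar of kirre and rst stands above the line for its own list. Those of hbs do so only for the lists of 30000. Those of sns stand below the line of the lists of 30000, with no IDR bar.

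The gene rst lies inside kirre. Ensembl places kirre (FBgn0028369) on the plus strand of X at 2740384 to 3134532, a span of 394149 bp, and rst (FBgn0003285) on the minus strand of X at 2950399 to 2973834, within that span. All 3 IDR summits of the rst window are therefore also among the 44 of kirre. In all, the spans of 22 other protein-coding genes overlap that of kirre, among them w (white, the eye pigment transporter), Syx4 (a syntaxin of membrane fusion) and a run of short genes known only by CG numbers. The genes sns (FBgn0024189, 2R, 8798489 to 8856091) and hbs (FBgn0287864, 2R, 15011396 to 15042134) lie on another chromosome, both on the plus strand.

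The peaks of kirre lay almost entirely upstream of its coding sequence. Its 7 annotated transcripts begin in 4 regions, near 2740384, at 2989051, near 3099550 and at 3128639, and end in the same 5 coding exons, which lie between 3129278 and 3132422, a stretch of 3145 bp. The 388.9 kb before the coding start, 98.7% of the span, hold only non-coding exons and introns of kirre, and the overlapping genes, rst among them, lie along the same stretch. Of the 44 IDR summits, 43 lay there and none in the coding stretch. The remaining summit, at 3134495, lay in the 3′ UTR of the longest kirre transcript and 375 bp before the start of N, which encodes the receptor Notch. By class, 39 of the 44 summits (88.6%, exact binomial 95% interval 75.4 to 96.2) fell in introns outside promoters, where 84.0% of the bases of the window are of that class. A promoter here reaches 500 bp to either side of any annotated transcription start (TSS). Promoters held 4 summits (9.09%, interval 2.53 to 21.7) in 8.29% of the bases, and coding exons held none in 4.91% of the bases. Among all 7927 IDR summits, promoters held 36.1% and introns 42.3%. These intervals cover counting error only and treat summits as independent.

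None of the promoter summits was at a start of kirre. A pair lay at Syx4, 160 and 317 bp from its TSS, 1 at CG3588, 169 bp from its TSS, and 1 at N. From the 6 start sites of kirre itself the nearest IDR summit was between 1240 bp (for the start at 3099550) and 4711 bp (for the start at 3128639) away. The pooled list, which reaches down to much weaker peaks, had a summit 21 bp from the start at 3099550, with a signal value of 76.1 and rank 13665 of 30000. It also had one 52 bp from the start at 3128639, with a signal value of 68.8 and rank 14730. Near the distal start at 2740805 the nearest pooled summit was 134 bp away with a signal value of 33.5 and rank 25493, and the nearest in replicate 2 was 1922 bp away. At the start at 2989051 a pooled summit lay 500 bp away, with a signal value of 128.1 and rank 9138. So weak peaks were called at the proximal starts in both replicates, all outside the IDR set.

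**Figure D2:**
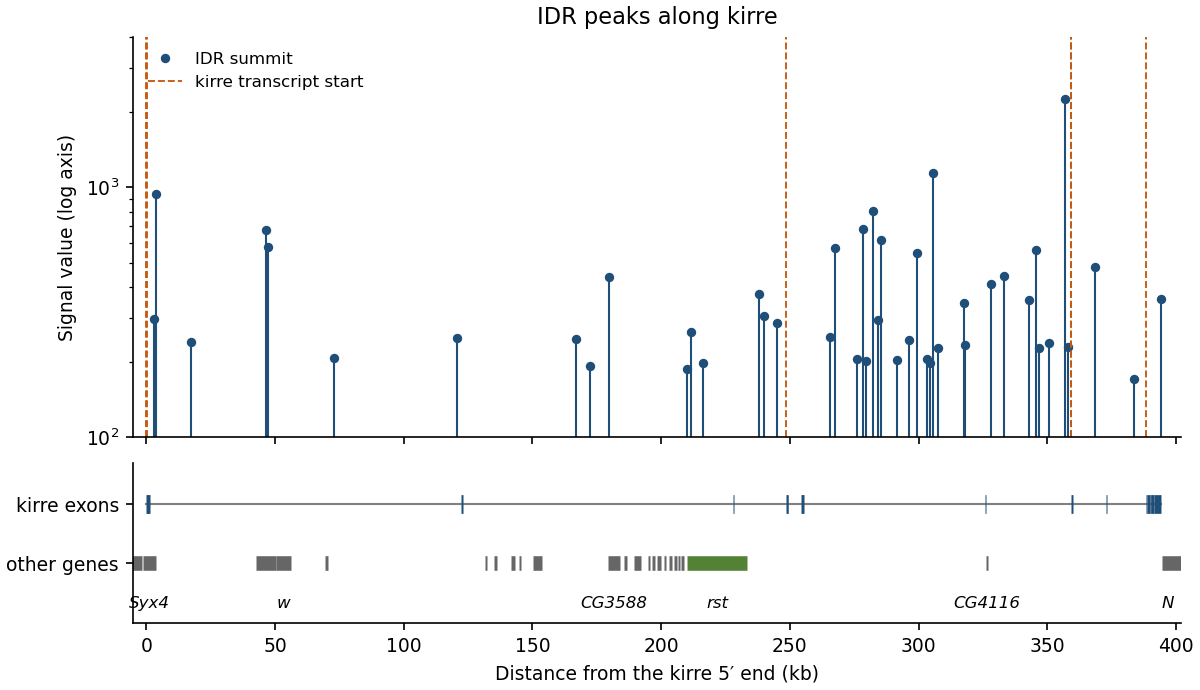
Signal value in the IDR list (upper panel, log axis) of the 44 IDR peaks of kirre against distance from its 5′ end in kb, with dashed lines at the transcript starts; the lower panel draws the kirre exons and the other protein-coding genes of the window, rst in green. Between the starts at about 249 and 359 kb stand 25 of the 44 peaks, including the tallest, with a signal value of 2260.

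The summits were crowded into the part of the gene that follows its second start region. The stretch of 110.5 kb between the starts at 2989051 and 3099550 makes up 27.8% of the window and held 25 of the 44 summits (56.8%), a density of 22.6 per 100 kb. The 248.7 kb between the first and the second start region, which contain rst and most of the other genes, held 16 summits, or 6.43 per 100 kb, near the 6.52 of the whole X chromosome. The 29.1 kb that follow the third start region held 2. The replicates gave the same picture when each was limited to its 7927 strongest peaks, with 24 summits in the crowded stretch in replicate 1 and 26 in replicate 2, and 17 and 15 in the first stretch. The boundaries of these stretches are annotated starts, but the crowded one was singled out after its count was seen, and no test was made of it.

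Inside that stretch, the summits lay in both of its long introns. The intron of 70.6 kb at 2995489 to 3066110 held 17 IDR summits, 24.1 per 100 kb, with signal values from 197.9 to 1141 and a median of 251.9. The following intron, 33.0 kb at 3066509 to 3099549, held 8, 24.2 per 100 kb, with signal values from 228.2 to 2260 and a median of 380.9. The long distal introns of 121.5 kb and 105.5 kb held 7 and 6, at 5.76 and 5.69 per 100 kb. The intron of 20.5 kb that reaches from within rst to the second start region held 3, and those of 12.9 kb and 15.4 kb near the coding exons held 1 each. Of the 17 introns between merged exons, 7 held a summit, and the other 10 included no intron longer than 5579 bp.

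**Figure D3:**
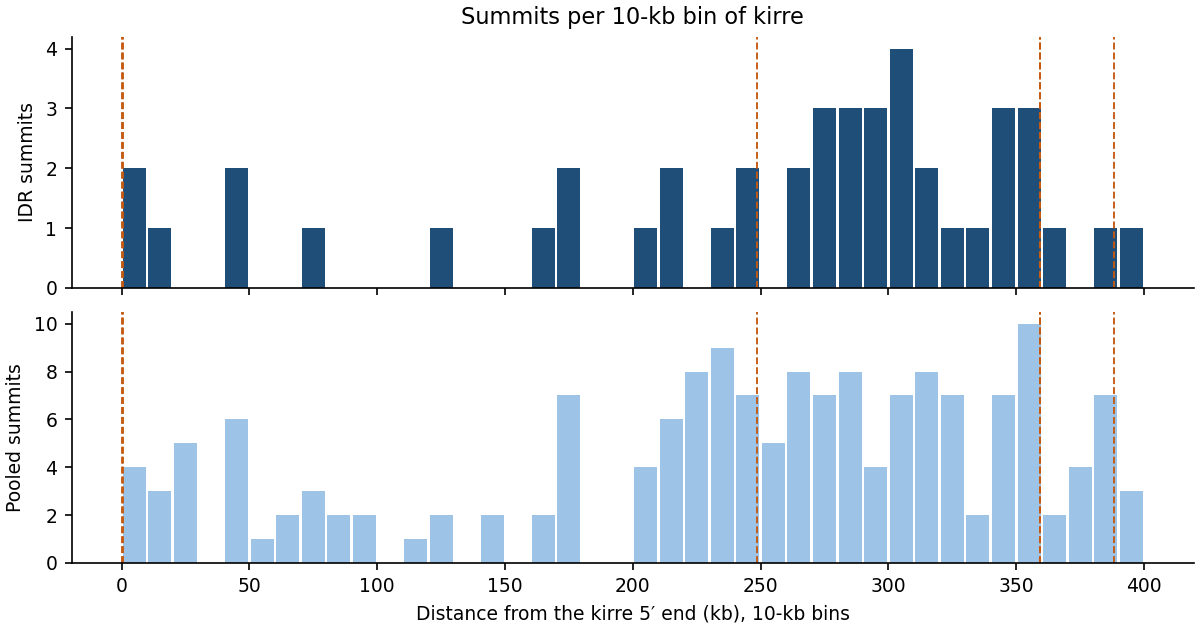
IDR summits (upper panel) and pooled summits (lower panel) in the 40 bins of 10 kb along kirre (the last bin ends with the gene), against distance from its 5′ end in kb; dashed lines mark transcript starts. No bin held more than 4 IDR summits, 16 bins held none, and the pooled summits also thin out in the first 200 kb.

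The median gap between neighbouring summits of kirre was close to that of the whole X chromosome, and its upper quartile was shorter. The 43 gaps between successive summits of kirre had a median of 4849 bp, with an interquartile range of 1886 to 10370 bp, against a median of 5413 bp and 1831 to 15210 bp for the 1533 gaps on X, which include those of kirre. Even spacing of 44 summits over the window would put them 9049 bp apart. Gaps under 1 kb made up 5 of the 43 (11.6%), against 12.6% on X. The closest summits, 3058103 and 3058313, were 210 bp apart. The widest gaps were 47892, 46101 and 30365 bp, all before position 2950315, and 7 gaps exceeded 20 kb. Within the crowded stretch the median gap was 2686 bp, and its first summit lay 16924 bp after the second start region.

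Per length, kirre stood out less than by its count. Among the 87 protein-coding genes with windows of at least 100 kb, 72.4% had an IDR summit, and the median density of all 87 was 2.22 per 100 kb. The other 24 had none, among them the longest, Myo81F and Pzl, in windows of 1969857 and 713421 bp. Neither had a pooled summit. Such genes lower the median, and whether peaks could be called in them was not tested. By density kirre ranked 12th of these 87 at 11.1 per 100 kb, and by length 5th. The densest was CG43658, with 19 summits in 109012 bp, or 17.4 per 100 kb. The genes with the next highest counts after kirre were CG1677 with 21 summits (16.3 per 100 kb), hth (homothorax, a Hox cofactor), fz (frizzled, a Wnt receptor) and sick with 20 each (14.7, 20.3 and 12.0 per 100 kb) and CG43658. All of them were denser than kirre in windows of at most 166060 bp. Of the 5 genes nearest to kirre in window length, Ten-a (a teneurin, which matches synaptic partners) had 17 summits in 295517 bp, 5.75 per 100 kb, and CG17684, DIP-lambda, lovit and bru3 had none. The first 3 of these 4 also had no pooled summit in windows of 383081 to 438041 bp, and bru3 had 4. When all chromosomes except Y were tiled with 334 windows as long as that of kirre, the median window held 24 summits (interquartile range 13 to 34.8), and 27 windows (8.08%) held 44 or more, up to 80. These comparisons describe where kirre stands and are not tests, since the gene was chosen for its count.

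**Figure D4:**
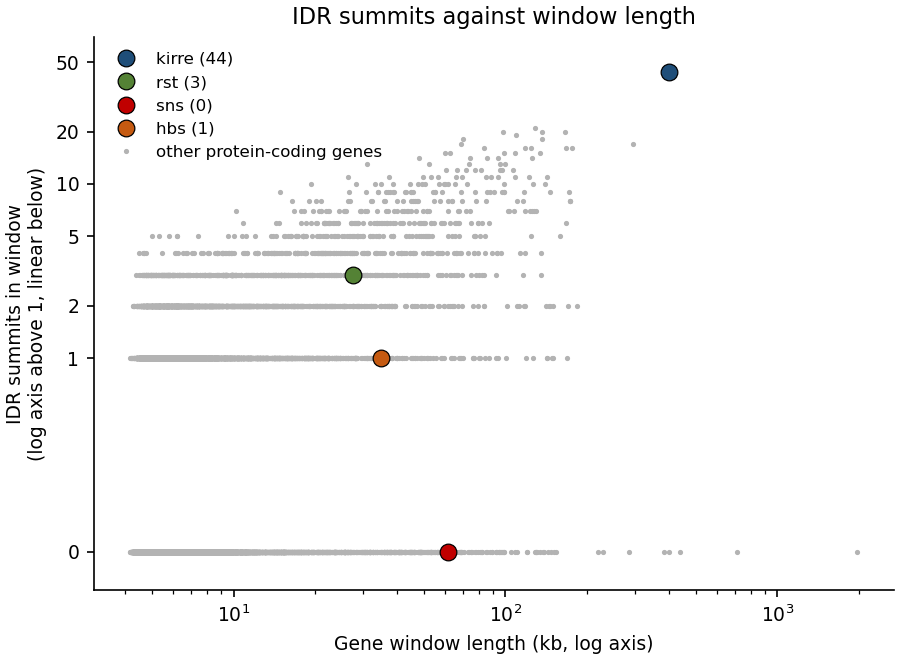
IDR summits in the gene window (vertical axis, linear below 1 and log above) against window length in kb (log axis) for protein-coding genes outside Y, with the 4 recognition genes as large points and their counts in the legend. The point of kirre, at 44, stands highest, far to the right, where only a few genes are as long and most of those have 0.

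The peaks of kirre were of ordinary strength. Their signal values in the IDR list ran from 170.7 to 2260 with a median of 290.9, beside 311.6 for all IDR peaks. With the IDR list cut into 4 equal sets from strongest to weakest, kirre had 10, 9, 17 and 8 peaks in them, and 3 were among the 1000 strongest. Their median width was 241 bp, against 283 bp for all IDR peaks. The strongest, at 3097008 to 3097414 with its summit 2336 bp before the start at 3099550, ranked 164th of 7927 in the IDR list, 176th in replicate 1 and 138th in replicate 2. The next, at 3045983 to 3046333 and 53376 bp from any kirre start, had a signal value of 1141 and ranked 623rd in replicate 1 and 672nd in replicate 2. The third, at 2744067 to 2744403 with 936.2, is the promoter peak of Syx4. Of the 10 strongest, 7 lay in the crowded stretch, and another pair, with signal values of 674.7 and 578.6, lay 711 bp apart inside CG32795. The weakest, at 3123803 to 3123978 with 170.7, ranked 8031st in replicate 1 and 6995th in replicate 2.

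Each of the 44 peaks was found in both replicates. All 44 overlapped a peak of each replicate list by at least 1 bp, as 7869 of the 7927 IDR peaks did (99.3%), and a summit of each replicate lay within 100 bp of all 44. The ranks ran from 176 to 8031 in replicate 1 and from 138 to 8327 in replicate 2, and 43 of 44 pairs of ranks (97.7%) lay within 2-fold of each other, beside 98.0% for all IDR peaks found in both. The exception, at 3005861 to 3006069, ranked 7492nd in replicate 1 and 3459th in replicate 2. Ranks and signals are those of the strongest replicate peak that overlaps, so the summits at 3058103 and 3058313 were given the same ones. Across the 44 peaks, which share libraries and are not independent, log2 signal in replicate 1 and in replicate 2 correlated with r = 0.933 (Pearson) and rho = 0.864 (Spearman). Peaks entered the IDR set by their ranks in these same lists and both lists used 1 control file, so this is a description of the set and not separate evidence.

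**Figure D5:**
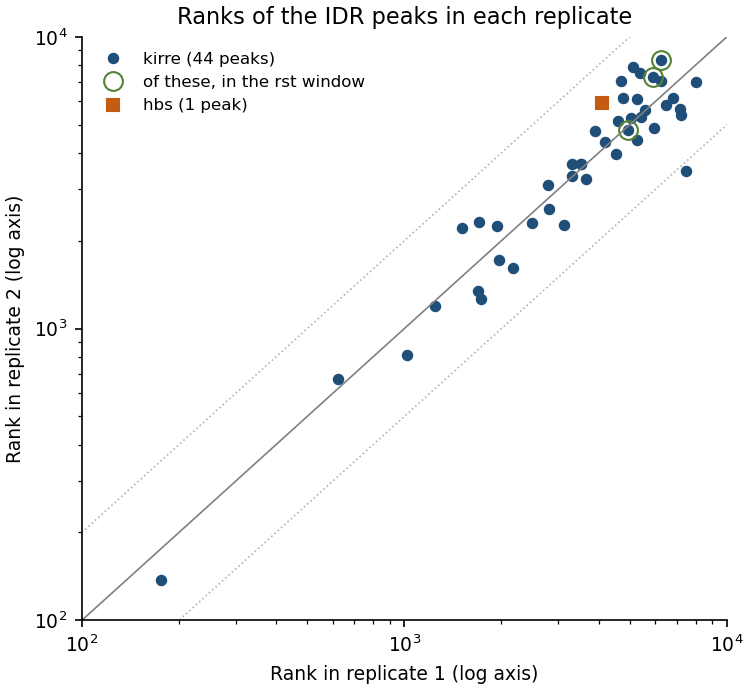
Rank of each IDR peak in replicate 1 (horizontal, log axis) and replicate 2 (vertical, log axis) for kirre and hbs, with the 3 peaks shared with the rst window ringed; rank 1 is the strongest of 30000. The solid line marks equal ranks and the dotted lines a 2-fold difference, which 1 of the 44 kirre peaks exceeds. The kirre peaks with summits at 3058103 and 3058313 fall on the same point.

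The founder cell partner rst had 3 IDR peaks, 10.9 per 100 kb of window, and many weaker ones. Its 3 IDR peaks had signal values of 187.9, 263.8 and 198.2 and lay at the far end of the gene from its promoter, at least 16992 bp from its TSS. The first was beyond its 3′ end, the next in its 3′ UTR and the last in an intron. They ranked 6228th, 4952nd and 5903rd in replicate 1 and 8327th, 4805th and 7289th in replicate 2. In the pooled list the window of rst held 22 summits, 80.2 per 100 kb against 21.8 over all chromosomes, and the replicates held 21 and 22. Of 448 genes of similar length, 434 had fewer pooled summits and 2 had as many, and their median was 6. These peaks had a median signal value of 45.3, below the 66.9 of the whole pooled list, and 16 of the 22 overlapped a peak in both replicates (72.7%, beside 73.1% of all pooled peaks). A pooled summit lay 42 bp from the TSS of rst, with a signal value of 83.1, and ranked 12765th.

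The receptors of fusion-competent myoblasts held the fewest IDR summits, in windows longer than that of rst. In sns, the partner required on those cells for most fusion, there was no IDR summit, and the nearest to its TSS was 38847 bp away. The pooled list had a single summit in its 61603 bp, 1.62 per 100 kb, 245 bp before the TSS, with a signal value of 69.7 and rank 14571. Replicate 1 had 2 peaks in the window and replicate 2 had 5. Both of replicate 1 lay before the TSS, at -449 and -242 bp, with signal values of 36.2 and 28.7. In replicate 2, 1 of the 5 lay before it, at -288 bp, with 44.2 and rank 12095. The other 4 of replicate 2, between 774 and 3765 bp after the TSS, had signal values of 16.9 to 36.3. The strongest of these 4 ranked 14420th of 30000 and the other 3 between 23522nd and 29052nd. Of 194 genes of similar length, 45 had fewer pooled summits than sns and 6 had as many, and their median was 11.

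In hbs, which acts beside sns on the same cells, the IDR peak was intronic, at 15034774 to 15034958 on 2R, 23486 bp from the TSS. It had a signal value of 269.2, above the 263.8 of the strongest IDR peak of rst, and ranked 4101st in replicate 1 and 5943rd in replicate 2. The pooled list had 13 summits in the window of hbs, 37.4 per 100 kb, and the replicates had 14 and 12. Of these 13, 6 overlapped a peak in both replicates (46.2%). Next to the IDR peak in strength was a summit 530 bp before the TSS of hbs, with a signal value of 112.4 and rank 10142. The median for the 358 genes of similar length was 7 pooled summits, and 234 of them had fewer than hbs.

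Most genes of a wider list on myoblast recognition and fusion held IDR summits in their windows as well. A list of 50 symbols, chosen with the earlier results known, gave 49 genes of recognition, fusion and its transcriptional control, since minc is a synonym of lmd. Of the 49, 36 (73.5%) had an IDR summit, against 41.8% of all protein-coding genes, and against 54.5% (26.7 genes) for the average gene of their lengths. With a 10 kb flank it was 44 of the 49, where 70.5% of all protein-coding genes had one. Without the 4 recognition genes it was 33 of 45. For 14 of these 33, the strongest summit lay within 500 bp of a start of the gene itself. For others, such as Cyfip and Cdc42, it lay closer to the TSS of another gene, so a summit in the window need not belong to the listed gene. No test was made of this list. Among adaptors, rols (rolling pebbles, the scaffold that Kirre and Rst recruit) had 12 summits in 60635 bp, the highest count after kirre, with the strongest at 647.9, 1860 bp from its TSS. The exchange factor gene mbc (myoblast city, the Rac activator) had 4, led by an 1895 peak 1154 bp from its TSS that ranked 280th and 215th in the replicates. The Arf exchange factor siz (schizo, also called loner) had 7, led by 1231, and drk, an SH2 and SH3 adaptor, had 2, led by an 1820 peak that lay 867 bp from the TSS of mars.

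Among actin regulators, Pak3, a kinase at the fusion site, had a peak of 2839, which ranked 87th and 81st in the replicates and lay 4410 bp from its TSS. Hem (also called kette, of the SCAR complex) had 1 of 1398, 301 bp from its own TSS and 169 bp from that of IleRS. The WASp branch had promoter peaks of moderate strength, 352.4 at Vrp1 (which binds WASp), 330.0 at WASp and 311.4 at blow (blown fuse), at 134, 76 and 189 bp from their TSS. Among the transcription factors Mef2, the muscle differentiation factor, had 10 summits, led by a 3511 peak 170 bp from the TSS of Pdrg1 and 1044 bp from its own. The gene twi (twist) had 3, led by 386.1 at 17922 bp from its TSS, and lmd (lame duck), which specifies fusion-competent myoblasts, had none. The gene jeb (jelly belly), whose secreted product specifies founder cells of the visceral muscle, had 2, led by 976.8 at 16748 bp from its TSS, while Alk, its receptor, had neither an IDR nor a pooled summit. The 13 genes with no IDR summit were sns, lmd, Alk, Ced-12 (also called Elmo), Crk, Arf6, SCAR, HSPC300, Arpc1, Arpc5, zip, Graf and sing.

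The sequence under the kirre summits was rich in A and T, as it was under other IDR summits. The 101 bp around the summit had a median GC content of 28.7% (interquartile range 25.5 to 33.7) at the 44 kirre peaks, against 30.7% at the other 7883 IDR peaks and 40.6% in 3942 adjoining windows of 101 bp that tile the kirre window. TAATTA, searched as TAATTA on both strands, was present at 4 of the 44 (9.09%, interval 2.53 to 21.7), at 10.97% of the other IDR peaks, at 11.3% of the other intronic IDR peaks and in 6.67% of the tiles. None of the 10 strongest peaks of kirre was among the 4, whose signal values were 206.6, 201.1, 197.9 and 481.6, and those at 276.3 and 304.6 kb hold it at 2 positions, as shown above. The related TAATTG, which includes CAATTA on the other strand, was present at 5 peaks (11.4%) against 10.9% of the other IDR peaks and 10.5% of the tiles. TAATGG was present at 3 (6.82%) against 4.62% of the other IDR peaks and 4.74% of the tiles. CANNTG, the general E-box of helix-loop-helix factors such as Twist, was present at 16 peaks (36.4%) against 33.4% of other IDR peaks and 40.6% of the tiles, and its form CATATG, which CANNTG includes, at 1 (2.27%) against 4.38% of other IDR peaks and 2.99% of the tiles. GAGAG was present at 1 (2.27%, interval 0.0575 to 12.0) against 8.59% of the other IDR peaks and 11.6% of the tiles. The Mef2 element, searched by its palindromic core, and TATCGATA, CAGGTAG and TGATTGAT, each searched on both strands, were found at none, where the upper limit of the interval is 8.04%. All 4 are also uncommon among the other IDR peaks, at 0.330% to 1.83%. A match is only a run of letters, and the kirre shares differ from those of other IDR peaks by less than their counting intervals, so no difference was detectable with 44 peaks.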

How the data were processed

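ChIP-seq of GFP-tagged Bsh was analysed in 2 biological replicates of 1 group. The deposited text files name 1 control file for all lists. Per the labels, chromatin was sonicated and coordinates are on dm6. For aligner, caller and thresholds, names were not given in the sources used here. Control reads were not analysed. The lists are narrowPeak, where the deposited signal value is a score of the authors' caller. Its scale differs between the replicate lists and the pooled list, and it was compared only within a list. The IDR peaks in the windows of kirre, rst and hbs carry their pooled values. The deposited −log10 q-value was not used. The summit offset is in bp from the peak start. The depth is unknown, since the lists carry no counts. Embryo age was taken from the source name, because the age field could not be read as an age.

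Genes were those of Ensembl release 115, without transposable elements, and sequence was read from RefSeq's copy of genome release 6. Windows were gene spans extended by 2 kb at both ends. A summit in several classes went to promoter before UTR, UTR before coding exon, and any exon before intron. The length expectation used 20 bins of window length. Intervals are exact binomial at 95%. Because the genes were chosen from these lists, no test was run. The members, gene list, motifs and alternatives were chosen with earlier results of these data known. The genes named are the 4, those that overlap the kirre window, the 5 nearest in length and the 5 next in count, and those of the fusion list. Further genes and stretches were singled out after their values were seen. Counting was tested on simulated data. Python 3.11.15, numpy 2.4.6, pandas 2.3.3, scipy 1.17.1 and matplotlib 3.10.9 were used.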

Additional observations from a re-analysis of the deposited data

How the results depend on the processing

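Of 64 values of 11 results under 12 alternatives, 36 stayed within their limits, which were a factor of 1.5 for counts, the spread between replicates for spacing, density and its rank, and the binomial interval for shares. The count of 44 for kirre was 43 to 44 when only the 7927 strongest peaks of 1 replicate were used, 44 without a flank, 47 with 10 kb, 43 with summits within 500 bp merged and 36 outside the genes that overlap it. It was 19 among the 3963 strongest IDR peaks (the upper set below) and 3 among the 1000 strongest, which hold fewer peaks by construction. Its density per 100 kb was 11.4 with a 10 kb flank, 4.77 in the upper set, 0.754 among the 1000 strongest, 10.8 when merged, 11.7 outside overlapping genes and 10.8 to 11.1 in single replicates. Its rank by density was 10 with a 10 kb flank, 20 among the 1000 strongest, 9 when merged and 10 to 12 in single replicates. Median spacing was 11035 bp in the upper set, 176489 bp among the 1000 strongest, 4928 bp when merged, 4696 bp outside overlapping genes and 4792 to 4843 bp in single replicates. The intronic share was 66.7% among the 1000 strongest and 97.2% outside overlapping genes. For rst the count was 5 with a 10 kb flank, and for rst and hbs it was 0 in the upper set and among the 1000 strongest, while for sns it was 0 under all 6 alternatives tried. The fusion list had 22 genes with no flank, where 15.6% of all genes had a summit, and 10 among the 1000 strongest, where 9.54% did. TAATTA was at 7 kirre peaks within 100 bp of the summit and at 1 in the upper set. No paired analysis was possible because there is 1 group and no test. With 2 replicates and unknown depth, a gene without a peak cannot be called unbound.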

Other observations

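The closest pair of kirre summits, 3058103 and 3058313, lies at a copy of the transposable element pogo (X, 3058074 to 3058259, 186 bp). The first summit is inside the copy and the other beyond its end. Each IDR peak was given the strongest replicate peak that overlaps it. For both this was the same peak, rank 3523 in replicate 1 and 3666 in replicate 2. Each replicate also had a summit within 100 bp of either, so the ranks of this pair are not separate values. Of the 5 transposable elements annotated in the kirre span, this was the only one that an IDR peak touched. The others, copies of roo, mdg1, FB and Transpac, lay 10556, 8872, 435 and 1914 bp from the nearest IDR summit. Whether these copies are present in the strain used was not tested.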
